A study of Mus musculus with 23 samples.

Results

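The genes described here encode the machinery that builds and loads the primary cilium, the single antenna-like projection that most resting mammalian cells carry. They were taken by gene symbol from 38 named genes of intraflagellar transport and the BBSome, and 35 of the 38 were measured among 19505 named genes on the arrays, each by 1 probe set. The 35 fell into IFT-A (6 genes), IFT-B (15 genes), the transport motors (8 genes) and the BBSome (6 genes). The motor Kif17 and the GTPases Arl6 and Arl13b were not analysed here. The genes were chosen by membership of these complexes with earlier results of these arrays, group differences in log2 signal among them, in view, so every difference between groups below is a description of the list, and none of it is independent evidence about the list.

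RNA was measured in 23 tumors of E0771, a mouse triple-negative breast cancer line injected into the fourth mammary fat pad of female C57BL/6NCrl mice. CON-LFD mice (n = 6) ate a diet with 10% of kcal from fat throughout and were never obese. DIO-HFD mice (n = 6) were made obese on a 60% fat diet and stayed on it, DIO-LFD mice (n = 5) were moved from that diet to the 10% diet, and DIO-VSG mice (n = 6) were moved likewise and also underwent vertical sleeve gastrectomy, which removes most of the stomach. All mice of the other groups had a sham operation, mice were 8 weeks old on arrival and ate the first diet for 15 weeks, the injection followed surgery by 7 weeks, and tumors grew for 4 weeks. Every tumor came from the same cell line, so the groups differ in the host and not in the injected cells, and each sample mixes tumor cells with host cells. In such bulk tissue, fewer cells of a type and less RNA per cell cannot be told apart.

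All 35 genes had a mean above the limit of low signal, 4.77 on the log2 scale, which is the 40th percentile of probe set means. Array medians ran from 6.13 to 6.5 and no pair of arrays correlated below 0.961. Among markers of the labeled tissue, the keratin Krt8 had a mean of 12.4 and the receptor gene Erbb2 of 9.77, while Epcam (4.61), Krt18 (4.34), Esr1 (4.55) and Pgr (3.59) lay below the limit. For DIO-LFD replicate 1 and DIO-VSG replicate 1 the source name gives another group than the title. Without these 2 arrays, the number of genes higher and the median difference in each comparison below stayed within 1.5 times their values, and when both were grouped by source name the median for DIO-VSG relative to DIO-HFD was -0.13 in place of -0.07. The number of genes called over the whole array between DIO-HFD and CON-LFD, 1 in all, was 66 without these arrays, 60 without DIO-LFD replicate 1 alone and 196 by source name, and no transport gene was among those called. Skeletal muscle transcripts were abundant on 8 arrays (3 DIO-LFD arrays, 2 each of DIO-VSG and CON-LFD, and 1 of DIO-HFD), DIO-LFD replicate 1 among them, with transport gene means of 8.61 to 9.11 against 8.61 to 9.21 in the other 15.

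As background, intraflagellar transport carries cargo in trains along the microtubules of the cilium. IFT-B trains are pulled outward to the tip by kinesin-II, IFT-A and the dynein-2 motor bring the trains back, and the BBSome is a coat that rides on them and carries membrane proteins out of the cilium. Cells use the primary cilium for Hedgehog signaling and take it apart before they divide, and loss of cilia has been described in breast cancer cells.

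Factors of the RFX family bind a two-armed motif, the X-box, in promoters of many ciliary genes. The promoters (250 bases before to 50 after the start, RefSeq, GRCm38.p6) of 33 of the 38 genes were searched for the letters GTTNCC and GGNAAC separated by 1 to 3 bases, a motif that reads the same on both strands. It occurred with no mismatch in 3 of 33 promoters (9.09%) against 0.903% of 27025 genes, and with up to 1 mismatch in 9 (27.3%) against 5.47%. The arm GTTGCC alone, searched on both strands and overlapping the longer motif where that has it, occurred in 16 (48.5%) against 14.1%. A match describes the letters only. The motif regions below, with both arms and their gap in capitals and up to 20 bases on each side, are shown because they are the motifs with up to 1 mismatch that lie wholly before the start of a measured gene, first the 3 full matches (Ift57 at chr16:49699214-49699266 on the plus strand, Ttc26 at chr6:38381471-38381523 on the plus strand, Bbs7 at chr3:36613477-36613530 on the minus strand) and then 2 with 1 mismatch (Ift22 at chr5:136908067-136908120 and Kif3c at chr12:3364936-3364989, both on the plus strand).
Ift57: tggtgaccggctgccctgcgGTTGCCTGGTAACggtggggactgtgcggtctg
Ttc26: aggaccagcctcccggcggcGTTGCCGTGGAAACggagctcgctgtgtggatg
Bbs7: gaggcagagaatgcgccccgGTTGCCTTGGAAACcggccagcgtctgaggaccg
Ift22: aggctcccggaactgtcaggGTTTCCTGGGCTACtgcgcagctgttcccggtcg
Kif3c: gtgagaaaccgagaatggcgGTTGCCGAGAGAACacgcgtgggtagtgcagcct
The genes with an X-box-like motif did not all share a direction: relative to CON-LFD, DIO-HFD means were higher by 0.29 for Ttc26 and 0.38 for Bbs7 and lower for Ift57 (-0.14), Ift22 (-0.40) and Kif3c (-0.16), all on the log2 scale. The other measured genes with up to 1 mismatch, whose motif spans or follows the start, were higher by 0.41 (Ift52), 0.15 (Bbs1) and 0.18 (Bbs4).

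Averaged over the 35 genes, log2 signal was lowest in tumors of never-obese mice and highest in tumors of obese mice, with both weight loss groups in between. The mean of the CON-LFD arrays was 8.74 ± 0.14 (SD, n = 6) and that of the DIO-HFD arrays 9.02 ± 0.13 (n = 6). After weight loss it was 8.82 ± 0.12 (n = 5) with diet alone and 8.91 ± 0.12 (n = 6) with surgery. CON-LFD arrays lay between 8.61 and 8.94 and DIO-HFD arrays between 8.85 and 9.21, so the groups overlapped, with 4 of 6 DIO-HFD arrays above the highest CON-LFD array. DIO-LFD arrays held 8.91, 8.93, 8.87, 8.79 and 8.63, and DIO-VSG arrays lay between 8.74 and 9.06.

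**Figure D1:**
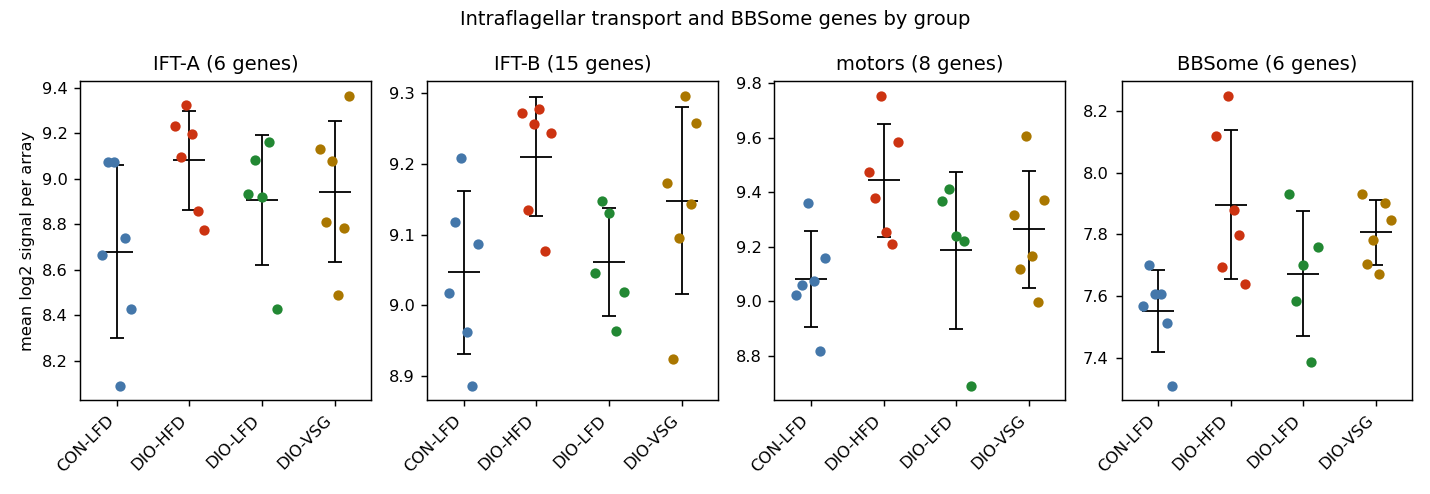
Mean log2 signal (y axis, scale differing by panel) of the genes of IFT-A, IFT-B, the motors and the BBSome on each array, by group; points are arrays and the bars are group mean ± SD. DIO-HFD has the highest mean and CON-LFD the lowest in each panel, and arrays of these groups overlap in each.

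The comparison of DIO-HFD with CON-LFD sets obese hosts on the 60% fat diet against never-obese hosts on the 10% fat diet. Obesity and diet cannot be told apart in it. Of the 35 genes, 30 had a higher mean in DIO-HFD and 5 a lower one, with a median difference of 0.36 on the log2 scale beside 0.03 over all 19505 genes, of which 53.8% were higher and 46% lower. No gene of the list passed limma's test with Benjamini-Hochberg adjustment over all genes at 0.05 (0 of 35, background 0.00513%), 8 had an unadjusted p below 0.05, all of them higher (background 7.53%), and 0 had arrays that did not overlap between the groups (background 0.569% higher and 0.584% lower). All 6 IFT-A genes (median 0.42), 11 of 15 IFT-B genes (0.28), 7 of 8 motors (0.47) and all 6 BBSome genes (0.37) were higher. The 8 with the smaller p were Kif3a, Bbs5, Ift43, Ift52, Dync2li1, Ift172, Ift81 and Ift46, and the smallest adjusted p was 0.206, for Kif3a.

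Markers of immune cells differed the other way between the same groups. All 12 measured T cell markers were lower in DIO-HFD (12 with an unadjusted p below 0.05, background for lower 5.89%), and the T cell list mean lay between 6.57 and 8.16 in CON-LFD and between 5.33 and 6.93 in DIO-HFD. All 11 macrophage markers were lower (8 with an unadjusted p below 0.05), with list means between 11.60 and 12.01 in CON-LFD and between 10.06 and 11.59 in DIO-HFD, which did not overlap. Skeletal muscle markers were lower too, 25 of 25 (median -1.57, 1 with an unadjusted p below 0.05), as were 12 of 15 fibroblast markers (3 with an unadjusted p below 0.05), beside a background of 46%. One of the 12 T cell markers and none of the 11 macrophage markers had a mean below the limit of low signal. Fits with the T cell or macrophage list mean as a covariate were added after the data were seen. With the T cell list, the median difference of the transport genes was 0.12 in place of 0.36, with 26 of 35 higher. With the macrophage list it was also 0.12, with 29 of 35 higher. The list means differed with group (6 DIO-HFD arrays below every CON-LFD array for macrophages, 4 for T cells). These fits therefore cannot separate immune markers from group.

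**Figure D2:**
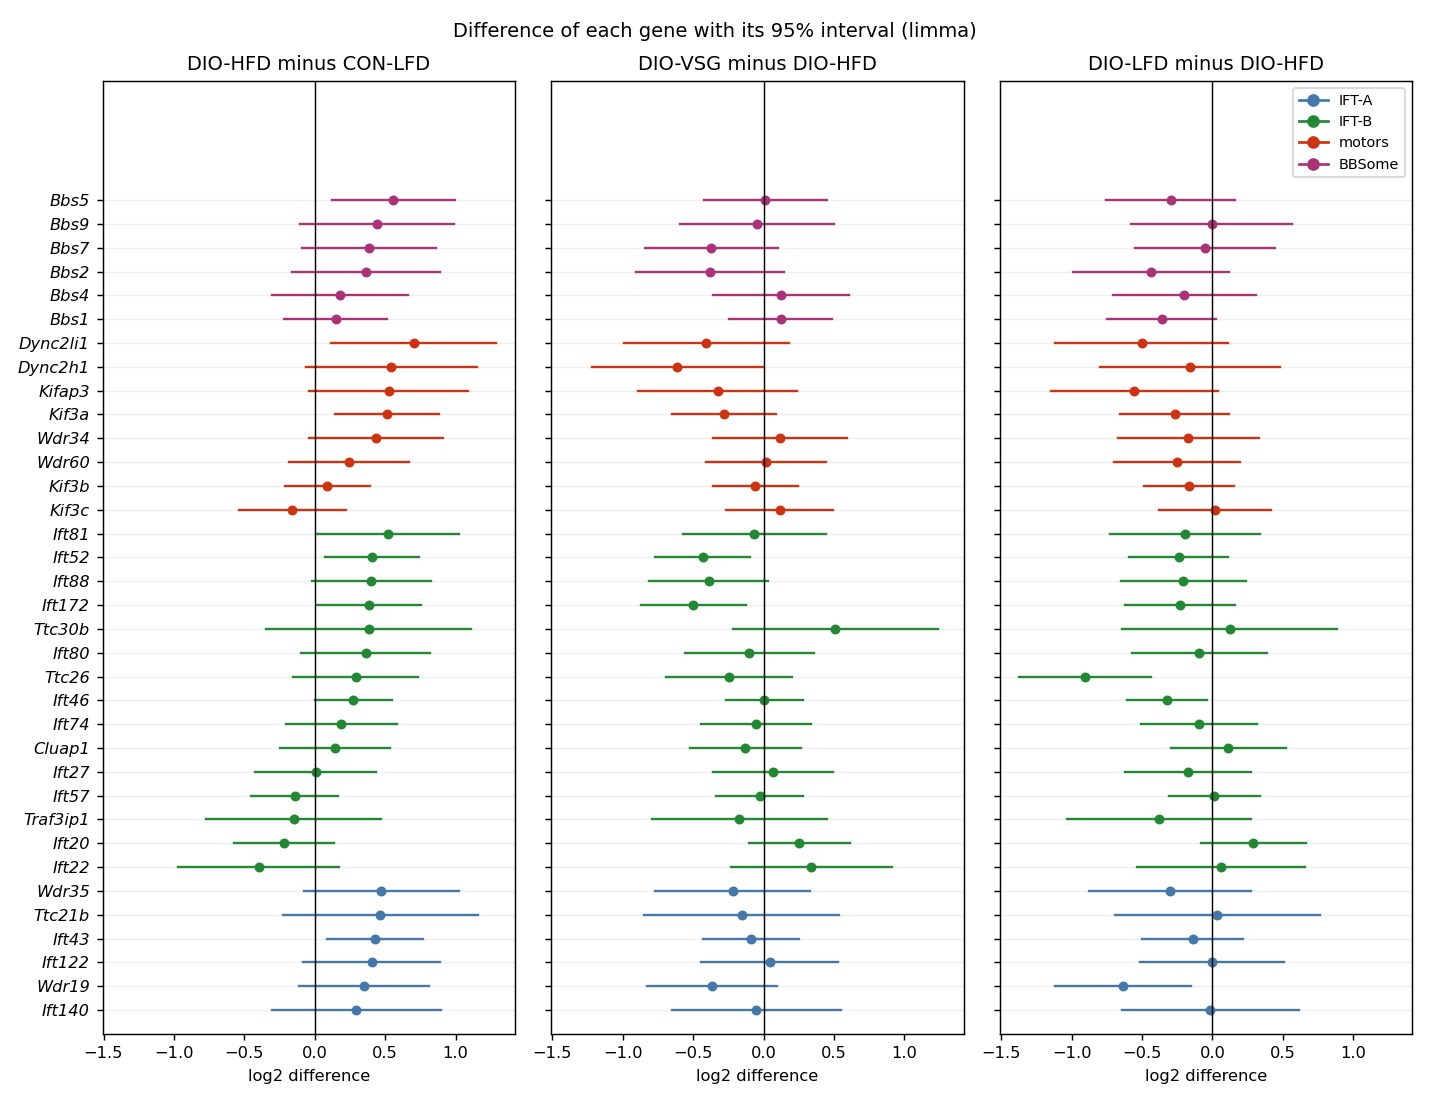
Difference in mean log2 signal (x axis) of each of the 35 genes (y axis) in DIO-HFD relative to CON-LFD (first panel) and in the surgery and diet groups relative to DIO-HFD (the other panels, in that order); points are limma estimates, lines their 95% intervals, and colors the complexes. Most points lie right of 0 in the first panel (30 of 35) and left of 0 in the others (23 and 28 of 35), with the largest difference from DIO-HFD at Ttc26 in the diet panel.

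IFT-A, which returns trains to the cell body and helps membrane proteins enter the cilium, was higher in DIO-HFD than in CON-LFD for each of its 6 genes, by 0.29 to 0.47. The smallest p was that of Ift43, a small subunit (difference 0.43 ± 0.17 SE, adjusted p = 0.248). Ift122 (0.40), Ift140 (0.29) and Wdr35 (0.47), large scaffold subunits, had unadjusted p above 0.05. Ttc21b, a subunit at the edge of the complex, had the widest spread of the complex, from 7.35 to 9.80 with a median of 8.81 in CON-LFD, from 8.18 to 9.91 (median 9.34) in DIO-HFD, from 8.62 to 9.55 (median 9.02) in DIO-VSG, and at 9.21, 9.60, 9.46, 9.17 and 8.86 in DIO-LFD. Its groups overlapped throughout, and the difference of 0.47 between DIO-HFD and CON-LFD had an SE of 0.33.

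Wdr19, another scaffold subunit of IFT-A, differed most between the obese group and the group that lost weight by diet. It ranged from 9.04 to 10.42 (median 9.35) in DIO-HFD and read 8.89, 8.97, 9.08, 9.21 and 8.44 on the DIO-LFD arrays. The CON-LFD arrays ranged from 8.87 to 9.47 (median 9.21) and the DIO-VSG arrays from 8.68 to 10.05 (median 9.13). Only DIO-LFD replicates 3 and 4 reached into the DIO-HFD range, and the difference was -0.64 ± 0.23 (SE), or 1.55-fold lower (adjusted p = 0.697). The other 5 IFT-A genes differed from DIO-HFD by -0.30 to 0.04 in DIO-LFD.

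IFT-B was less uniform than IFT-A, and 4 of its 15 genes were lower in DIO-HFD than in CON-LFD. Among core subunits, Ift52 (0.41), Ift88 (0.40), Ift81 (0.52), Ift74 (0.19) and Ift46 (0.28) were higher in DIO-HFD, where Ift81 and Ift74 form the pair that binds tubulin cargo and Ift88 is the subunit disrupted in the classic mouse model of polycystic kidney disease. The GTPase Ift27, which links the trains to exit of the BBSome, differed by 0.01. Of the peripheral subunits, Ift80 (0.36), Ift172 (0.39) and Cluap1 (0.14) were higher, and Ift57 (-0.14) and Traf3ip1 (-0.15) lower.

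Ift20 and Ift22 were the IFT-B genes with the largest differences in the opposite direction. Ift20, a subunit that also sits at the Golgi and helps send vesicles to the cilium, ranged from 14.24 to 15.01 (median 14.6) in CON-LFD, from 13.85 to 14.66 (median 14.45) in DIO-HFD and from 14.28 to 15.12 (median 14.63) in DIO-VSG, and read 14.53, 14.31, 14.93, 14.61 and 15.01 in DIO-LFD. DIO-HFD had the lowest array, but the groups overlapped and the difference from CON-LFD was -0.22 ± 0.17 (SE). Ift22, a small GTPase of the core, ranged from 8.02 to 9.23 (median 8.57) in CON-LFD, from 7.58 to 8.65 (median 8.23) in DIO-HFD and from 7.76 to 9.29 (median 8.52) in DIO-VSG, and read 7.62, 7.90, 9.01, 8.23 and 8.45 in DIO-LFD. Its difference between DIO-HFD and CON-LFD, -0.40 ± 0.28 (SE), was within the spread of the arrays, and it was 0.14 with the T cell list mean as a covariate.

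Ttc30b, a subunit that in the alga Chlamydomonas wraps around Ift52, had the widest spread of all 35 genes. It ranged from 4.44 to 6.29 (median 5.27) in CON-LFD, from 4.77 to 6.31 (median 5.64) in DIO-HFD and from 4.86 to 7.09 (median 6.38) in DIO-VSG, and read 5.65, 6.05, 5.03, 5.91 and 6.17 in DIO-LFD. Parts of these arrays lay near the limit of low signal. The largest difference was 0.89 ± 0.35 (SE) between DIO-VSG and CON-LFD (adjusted p = 0.672).

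Ift172, a large peripheral subunit that in Chlamydomonas takes part in turning trains around at the tip, was highest in the obese group. It ranged from 7.71 to 8.25 (median 8.10) in DIO-HFD, from 7.21 to 8.07 (median 7.78) in CON-LFD and from 6.78 to 7.92 (median 7.66) in DIO-VSG, and read 7.8, 8.04, 7.78, 7.73 and 7.69 in DIO-LFD. The groups overlapped, with differences of 0.39 ± 0.18 (SE) between DIO-HFD and CON-LFD (adjusted p = 0.356) and -0.50 ± 0.18 between DIO-VSG and DIO-HFD (adjusted p = 0.860).

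Ttc26, a core subunit with one of the full X-box-like motifs printed above, had the smallest unadjusted p of the list in any comparison. It ranged from 7.58 to 8.43 (median 8.07) in DIO-HFD, from 7.53 to 7.97 (median 7.78) in CON-LFD and from 7.31 to 8.37 (median 7.83) in DIO-VSG, and read 7.27, 7.66, 7.63, 6.49 and 6.61 in DIO-LFD. DIO-LFD replicates 4 and 5 lay below every other array, and replicates 2 and 3 reached the DIO-HFD range. The difference between DIO-LFD and DIO-HFD was -0.91 ± 0.23 (SE), or 1.87-fold lower (adjusted p = 0.650). Replicates 4 and 5 were also rich in skeletal muscle transcripts, while the muscle-rich arrays of the other groups lay at 7.31 or higher. Without the muscle-rich arrays DIO-LFD kept only replicates 2 and 3, its highest. The difference was then -0.41, and -0.10 in place of -0.62 relative to CON-LFD. The part of muscle in these values was not tested.

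The motors were the group with the largest median in DIO-HFD relative to CON-LFD. Kif3a, the motor subunit of kinesin-II that drives trains outward, ranged from 11.73 to 12.60 (median 11.96) in CON-LFD, from 12.36 to 12.82 (median 12.54) in DIO-HFD and from 11.87 to 12.74 (median 12.24) in DIO-VSG, and read 12.76, 12.47, 12.35, 12.22 and 11.64 in DIO-LFD. The lowest DIO-HFD array lay within the CON-LFD range, and the difference was 0.51 ± 0.18 (SE), or 1.43-fold (adjusted p = 0.206). Its adaptor Kifap3 was higher by 0.53 and its partner Kif3b by 0.09, while Kif3c, which can replace Kif3b, was lower (-0.16).

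Among dynein-2 subunits, Dync2li1, the light intermediate chain, had the largest difference of the 35 genes between DIO-HFD and CON-LFD. It ranged from 5.92 to 7.04 (median 6.67) in CON-LFD, from 6.34 to 7.79 (median 7.29) in DIO-HFD and from 5.76 to 7.65 (median 6.91) in DIO-VSG, and read 6.63, 6.59, 7.03, 6.71 and 6.87 in DIO-LFD. All groups overlapped, and the difference was 0.70 ± 0.28 (SE), or 1.63-fold (adjusted p = 0.275).

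Dync2h1, the heavy chain that generates the force of the return motor, was the motor gene with the widest spread. It ranged from 5.52 to 6.95 (median 6.10) in CON-LFD, from 5.99 to 7.10 (median 6.73) in DIO-HFD and from 4.99 to 6.72 (median 6.29) in DIO-VSG, and read 6.81, 6.80, 6.14, 6.62 and 6.00 in DIO-LFD. DIO-VSG held the lowest arrays, and the difference from DIO-HFD was -0.61 ± 0.29 (SE), or 1.53-fold lower (adjusted p = 0.883). Relative to CON-LFD, DIO-HFD was higher by 0.54 ± 0.29, and the difference was -0.002 with the T cell list mean as a covariate. The intermediate chains Wdr34 and Wdr60 were higher in DIO-HFD than in CON-LFD by 0.43 and 0.24.

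Of the BBSome, whose subunits coat vesicles and hand receptors to the trains, each of the 6 measured genes was higher in DIO-HFD than in CON-LFD, by 0.15 (Bbs1) to 0.56 (Bbs5). Bbs5, the subunit that binds membrane phosphoinositides, ranged from 6.04 to 6.99 (median 6.84) in CON-LFD, from 6.90 to 7.92 (median 7.14) in DIO-HFD and from 6.87 to 7.53 (median 7.32) in DIO-VSG, and read 6.84, 7.16, 7.51, 6.27 and 6.91 in DIO-LFD. The highest CON-LFD array lay just above the lowest DIO-HFD array, and the difference was 0.56 ± 0.21 (SE; adjusted p = 0.241), with 0.57 ± 0.21 for DIO-VSG relative to CON-LFD (adjusted p = 0.634). Without the muscle-rich arrays these were 0.72 and 0.65, and the difference for DIO-LFD relative to CON-LFD was 0.78 in place of 0.26. That fit kept only replicates 2 and 3 of DIO-LFD, which held its highest Bbs5 values (7.16 and 7.51).

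Bbs9, a scaffold of the BBSome, had its widest spread, from 8.57 to 9.92 (median 9.24) in CON-LFD, from 8.98 to 10.49 (median 9.64) in DIO-HFD and from 9.22 to 10.30 (median 9.63) in DIO-VSG, and at 10.31, 8.98, 9.79, 9.23 and 10.16 in DIO-LFD. The 3 groups with a history of obesity were higher than CON-LFD by 0.40 to 0.44, each with an SE of 0.26 or 0.28. Bbs2 and Bbs7, which form the core of the coat with Bbs9, were higher in DIO-HFD by 0.36 and 0.38, Bbs4 by 0.18.

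**Figure D3:**
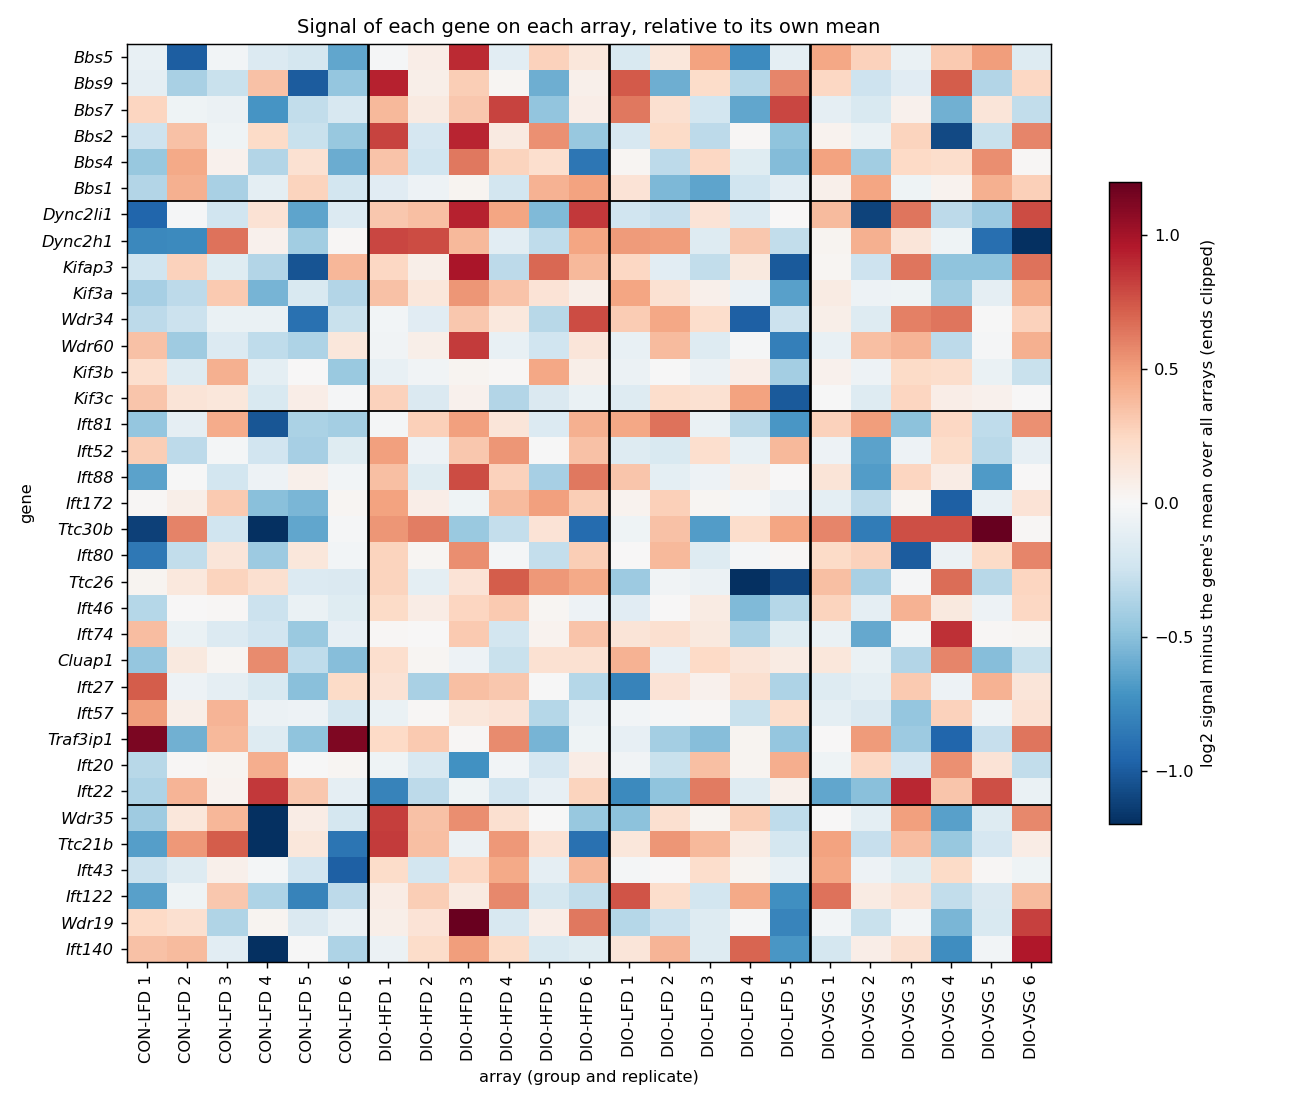
Log2 signal of each of the 35 genes (rows, by complex) on each of the 23 arrays (columns, by group and replicate) minus the gene's mean over all arrays; red is above and blue below that mean, and the color scale is clipped at its ends. Red is most common in the DIO-HFD block and blue in the CON-LFD block, and single arrays, such as CON-LFD replicate 4 in IFT-A and DIO-LFD replicate 5 in the motors, stand apart.

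The comparison of DIO-VSG with DIO-HFD sets surgery with a change to the 10% fat diet against sustained obesity on the 60% fat diet. Surgery, weight loss and current diet cannot be told apart in it. In DIO-VSG, 23 of 35 genes were lower and 12 higher, with a median of -0.07 beside -0.01 over all genes, of which 51.5% were lower. No gene passed the adjusted test (background 0%), and 3 had an unadjusted p below 0.05, all lower (background 2.67%): Ift52 (-0.43), Ift172 (-0.50) and Dync2h1 (-0.61). The largest differences upward were those of Ttc30b (0.51 ± 0.35 SE) and Ift22 (0.34 ± 0.28). In the same comparison 11 of 12 T cell, 9 of 11 macrophage and 10 of 12 endothelial markers were higher (background for higher 48.2%) and 12 of 15 fibroblast markers lower. An unadjusted p below 0.05 was reached upward by 3 T cell, 1 macrophage and 1 endothelial marker. Downward it was reached by 1 macrophage and 1 fibroblast marker. With the T cell list mean as a covariate the median of the transport genes was -0.014, with 16 higher. IFT-A was lower for 5 of 6 genes, IFT-B for 10 of 15, motors for 5 of 8 and BBSome genes for 3 of 6. The median was -0.02 without DIO-HFD replicate 3, which had the highest transport gene mean, and -0.14 without DIO-HFD replicate 5, which had the lowest of its group.

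The comparison of DIO-LFD with DIO-HFD sets weight loss by a change to the 10% fat diet against the same obese group. Weight loss and current diet cannot be told apart in it. In DIO-LFD, 28 of 35 genes were lower and 7 higher, with a median of -0.17 beside -0.03 over all genes, of which 54.2% were lower. No gene passed the adjusted test (background 0%), and 3 had an unadjusted p below 0.05, all lower (background 3.77%): Ttc26 (-0.91), Wdr19 (-0.64) and Ift46 (-0.32 ± 0.14 SE). All 6 BBSome genes, 7 of 8 motors, 5 of 6 IFT-A genes and 10 of 15 IFT-B genes were lower. The largest differences upward were those of Ift20 (0.29 ± 0.18 SE) and Ttc30b (0.12 ± 0.37). In this comparison all 12 T cell markers, 10 of 11 macrophage markers and all 25 skeletal muscle markers (median 2.78) were higher (background for higher 45.7%). An unadjusted p below 0.05 was reached by only 1 T cell, 1 macrophage and 0 skeletal muscle markers. Without the muscle-rich arrays, which left 2 DIO-LFD arrays, 14 genes were higher and the median was -0.05, and without DIO-LFD replicate 5 alone the median was -0.11.

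These 3 comparisons share the DIO-HFD arrays, so a high DIO-HFD array raises the first and lowers the others together. Side by side, for the obese group relative to CON-LFD and then for surgery and diet, each relative to the obese group, the differences were 0.70, -0.41 and -0.50 for Dync2li1. They were 0.51, -0.28 and -0.27 for Kif3a and 0.56, 0.01 and -0.30 for Bbs5. For Ift20 they were -0.22, 0.26 and 0.29.

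The other comparisons do not use DIO-HFD. Relative to CON-LFD, 26 of 35 genes were higher in DIO-VSG (median 0.20, background for higher 54%) and 21 in DIO-LFD (median 0.17, background 49.5%). No gene passed in either (background 0%), and an unadjusted p below 0.05 was reached by 4 genes, all higher, in DIO-VSG (Bbs5, Ttc30b, Wdr34 and Ift46, background 3.57%) and by 1 gene, lower, in DIO-LFD (Ttc26, background 2.6%). Immune markers were lower in both groups, 12 of 12 T cell markers in each, 11 of 11 macrophage markers in DIO-VSG and 9 of 11 in DIO-LFD (backgrounds for lower 45.8% and 50.4%). In DIO-VSG, 3 T cell and 4 macrophage markers were lower at an unadjusted p below 0.05 (background 3.1%). In DIO-LFD these counts were 0 and 2 (background 2.6%). In DIO-VSG, 15 of 15 fibroblast markers were also lower, 7 of them at an unadjusted p below 0.05 (background 3.1%), and 11 of 12 endothelial markers were higher. The medians relative to CON-LFD were 0.07 in DIO-VSG without CON-LFD replicate 5 and 0.11 without replicate 4, and 0.08 in DIO-LFD without CON-LFD replicate 4. Over all arrays, with the T cell list mean as a covariate, the medians were 0.10 in DIO-VSG and 0.05 in DIO-LFD, and with the macrophage list mean 0.03 and 0.05.

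Between DIO-VSG and DIO-LFD, 22 genes were higher after surgery (median 0.08, background 53.5%), 0 passed (background 0%), and 3 had an unadjusted p below 0.05, all higher (Ttc26 by 0.66, Bbs1 by 0.48 and Ift46 by 0.33, background 2.02%). Bbs1 lay at the limit of low signal, with a DIO-LFD mean of 4.68 and 2 of 5 arrays above it, where small differences are uncertain. In the same comparison 11 of 12 endothelial markers were higher, 5 of them at an unadjusted p below 0.05. Skeletal muscle markers were lower, 25 of 25 (median -2.53, background for lower 46.4%), 0 of them at an unadjusted p below 0.05. With the muscle list mean as a covariate the median of the transport genes was 0.05, and without the muscle-rich arrays Ttc26 was higher by 0.13. The part of endothelial cells in these values was not tested.

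Within groups, the genes varied together only in part. The mean pairwise correlation of deviations from group means over the 23 arrays, which share their scaling, was 0.076 among the 35 genes (0.063 to 0.17 under other scalings and without muscle-rich arrays, highest with array medians centered) and 0.0084 among all genes above the limit of low signal. It was 0.27 within IFT-A, 0.22 within the motors and 0.21 between IFT-A and the motors, but 0.041 within IFT-B and 0.013 within the BBSome. Kif3a (r = 0.74, n = 23 arrays), Ift46 (0.66) and Ift122 (0.57) followed the mean of the other genes most closely, and Ift20 (-0.61), Bbs1 (-0.38) and Ift22 (-0.28) ran against it. The pair with the highest correlation was Ttc21b and Wdr35, both of IFT-A (0.81), followed by Ift88 and Dync2li1 (0.76), and the lowest were those of Ift20 with Ift140 (-0.77) and with Wdr60 (-0.74).

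**Figure D4:**
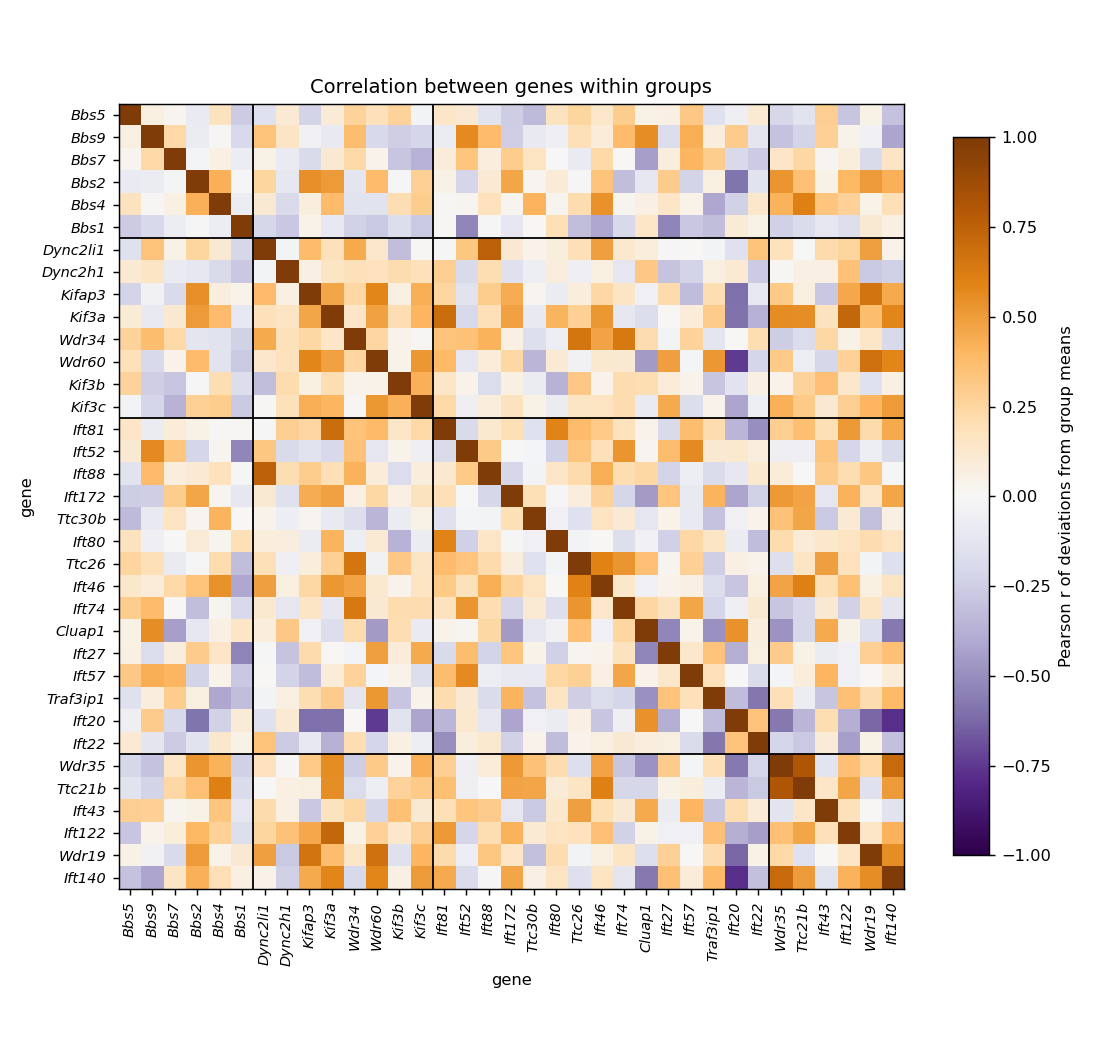
Pearson correlation between each pair of the 35 genes (both axes, by complex, black lines between complexes) of deviations from group means over 23 arrays; orange is positive and purple negative. Orange is more common within and between IFT-A and the motors than in the rest, and the Ift20 row is mostly purple against them, down to -0.77 with Ift140.

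Deviations of the 35-gene mean from its group means were also set against those of the marker lists, over the same 23 arrays. The correlation was -0.65 with the T cell list and -0.64 with the macrophage list (Spearman -0.64 and -0.67), and -0.61 and -0.64 without the 2 arrays farthest from the median of the list. It was 0.56 with the endothelial list, 0.40 with the cell cycle list and -0.15 with the skeletal muscle list. All of these lists were read from the same RNA on the same arrays. The part of immune cell content in the transport gene values was not tested, since the covariate fits cannot separate it from group.

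**Figure D5:**
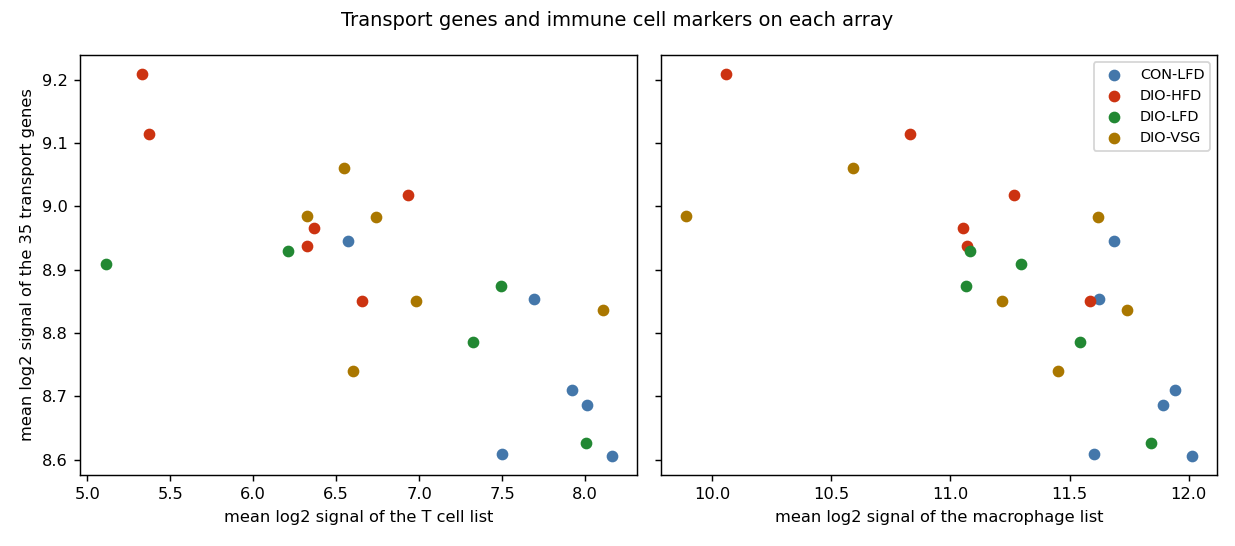
Mean log2 signal of the 35 genes (y axis) against that of the T cell list (left) and macrophage list (right) on each array (x axes), colored by group. DIO-HFD replicate 3, at 9.21, had the highest mean and CON-LFD replicate 4, at 8.61, the lowest, while DIO-LFD replicate 1, with the lowest T cell list mean (5.11), was at 8.91.

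Of the other ciliary gene lists, the transition zone, the gate at the base of the cilium, followed the transport genes most closely (r = 0.78 within groups, n = 23 arrays). In DIO-HFD relative to CON-LFD, 16 of its 19 measured genes were higher (median 0.46), 0 passed the adjusted test and 9 had an unadjusted p below 0.05, all higher (background 7.53%). Tctn3, a tectonic protein of the gate, was higher by 0.73 ± 0.20 (SE; adjusted p = 0.124), and its 6 DIO-HFD arrays did not overlap with CON-LFD, as was the case for Invs, inversin (0.46 ± 0.17), or 2 of 19 genes beside a background of 0.569%. Relative to DIO-HFD, 16 of 19 were lower in DIO-VSG and 16 of 19 in DIO-LFD, each with 4 lower at an unadjusted p below 0.05 (backgrounds 2.67% and 3.77%), among them Cc2d2a, a gate scaffold (-0.84 ± 0.29 and -0.65 ± 0.30). In the promoters, 12 of 18 transition zone genes (66.7%) held the X-box-like motif with up to 1 mismatch, against 5.47% of all genes. With no mismatch it was 4 (22.2%) against 0.903%.

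Other lists were near 0 in DIO-HFD relative to CON-LFD, with no gene passing the adjusted test. The median was 0.09 for 16 further transport subunits and chaperones, with 3 of unadjusted p below 0.05, all higher (background 7.53%). One was Bbs12, part of the chaperonin that assembles the BBSome (0.56 ± 0.18 SE), and others were Wdpcp (0.69 ± 0.27) and Lztfl1, a regulator of BBSome entry (0.46 ± 0.20). For 19 basal body and ciliogenesis genes it was 0.07, with Rab3ip, the exchange factor that starts membrane assembly (-0.48 ± 0.20), and Ehd1 (-0.49 ± 0.22) lower at an unadjusted p below 0.05 (background 5.89%). For 10 genes that block or dismantle cilia it was -0.05, with Cep97, a cap of the mother centriole (0.60 ± 0.17), the only one of unadjusted p below 0.05.

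The Hedgehog pathway, ciliary membrane cargo, RFX and FOXJ1 and motile cilium lists had medians between -0.07 and 0.03 in the same comparison. Of the measured Hedgehog pathway genes, 13 had a mean above the limit of low signal. Of 17 Hedgehog pathway genes, 9 were higher and 8 lower in DIO-HFD relative to CON-LFD (median 0.03, background 53.8% higher), with 3 of unadjusted p below 0.05 (background 7.53% higher and 5.89% lower): the receptor Ptch1 (0.54 ± 0.24 SE) and the antagonist Hhip (0.56 ± 0.17, below the limit of low signal) higher, and the co-receptor Gas1 (-0.68 ± 0.32) lower. Of 11 ciliary membrane cargo genes 7 were higher (median 0.01), 2 of them at an unadjusted p below 0.05 (18.2%, background 7.53%). Among these 2 was Adcy3, the adenylyl cyclase of primary cilia (0.72 ± 0.33). Of 7 RFX and FOXJ1 factors 3 were higher, Rfx3 by 0.51 ± 0.25. Only 5 of 18 measured genes of motile cilia had a mean above the limit of low signal, and their list median differed by -0.02.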

How the data were processed

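RNA of 23 tumors was measured on Affymetrix Mouse Clariom S HT arrays. The authors deposited log2 signals, made with signal space transformation and robust multichip averaging. The build of the probe annotation is not given in the sources used here. Of 22206 probe sets, 19572 had 1 gene symbol, and of several probe sets for a gene (55 genes) the brightest on average was kept, leaving 19505 genes. Groups followed the titles. Whether the tumors of a group came from separate cages or days is not stated, so p-values measure the spread between these tumors. Arrays carry no counts, so their number limits the precision.

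Each gene was tested with limma 3.58.1 in R 4.3.3 (lmFit on 23 arrays with a mean per group, two-sided moderated tests from eBayes on 19 residual plus 4.00 prior degrees of freedom), with Benjamini-Hochberg adjustment over all genes at 0.05, for 6 pairs of groups. The step was checked on simulated data. The genes and lists were chosen with earlier results of these data known. Named are, for the 3 comparisons with DIO-HFD, the 2 largest differences each way, the widest SD of each complex, and up to 4 genes of smallest p per related list. The values of Kif3a, Ift43, Ift46 and Ift52 were added as those of smallest p. Alternatives changed the low-signal filter, arrays, variance model, scaling, weights, labels, probe sets, covariates and the replicate block, and each array was left out in turn. The T cell and macrophage covariates were chosen after seeing the data.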

Additional observations from a re-analysis of the deposited data

Results flagged for a closer look

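Of 156 sets of 5 or 6 arrays examined (the values of a gene or a complex in a group), 6 (3.85%) held an array far from the others, where chance gives about 1 in 20. In CON-LFD, Ift43 was at 9.46 on replicate 6, with the next array at 10.18, and Wdr34 at 6.72 on replicate 5, with the next at 7.30. DIO-HFD replicate 3, the array with the highest transport gene mean, was lowest for Ift20 (13.85, next 14.37) and highest for Wdr60 (11.45, next 10.76), the pair of genes whose within-group correlation was -0.74. In DIO-HFD, Kif3b was at 10.1 on replicate 5, with the next at 9.71. The mean of the motors was 8.69 on DIO-LFD replicate 5, with the next array at 9.22.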

How the results depend on the processing

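No gene of the list passed the adjusted test in any of the 6 comparisons under any alternative. For DIO-HFD with CON-LFD, 26 to 30 genes were higher over 14 alternatives, and the median was 0.12 with either the T cell or the macrophage list mean as a covariate. Centering each array on its median moved the median of all genes in this comparison from 0.03 to 0.14 and that of the list from 0.36 to 0.47. For DIO-LFD with DIO-HFD, the number of genes higher was 4 with arrays centered, 14 (median -0.046) without muscle-rich arrays and 12 with the T cell covariate. For DIO-VSG with CON-LFD the median was 0.031 with the macrophage covariate, beside 0.20 in the main fit. With arrays centered it was 0.325, with 33 genes higher, and that of all genes was 0.15. For DIO-VSG with DIO-LFD the median was -0.007 with the macrophage covariate, beside 0.08. With arrays centered it was 0.13, with 28 genes higher, and that of all genes was 0.07. The cause of these moves was not tested.

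Leaving out 1 array at a time, the median ranged from 0.28 to 0.41 for DIO-HFD with CON-LFD (29 to 31 higher), from -0.14 to -0.02 for DIO-VSG with DIO-HFD (8 to 14 higher), from -0.22 to -0.11 for DIO-LFD with DIO-HFD (5 to 9 higher), from 0.070 to 0.27 for DIO-VSG with CON-LFD, from 0.08 to 0.19 for DIO-LFD with CON-LFD and from 0.02 (without DIO-LFD replicate 5) to 0.13 (without DIO-LFD replicate 2) for DIO-VSG with DIO-LFD. Of 1683 values for the named genes, 8 moved by more than the spread between replicates, 6 of them without the muscle-rich arrays (Ttc26 in 3 comparisons, Bbs5 in 2 and Ttc21b in 1) and 2 with the T cell covariate (Ift22 and Dync2h1).

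Replicate numbers showed no sign of pairing the arrays. Over 33 same-numbered pairs the correlation of deviations ran from -0.28 to 0.34 (median 0.004). Over 165 pairs with other numbers it ran from -0.38 to 0.44 (median -0.012). With the replicate block, 0 genes of the list passed in each comparison and the median for DIO-HFD with CON-LFD was 0.36. Over the whole array, 12 genes passed in that comparison, beside 1 without the block.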
